A study of Dicentrarchus labrax with 30 samples.

Results

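The receptors for GABA, glycine and glutamate were followed across 3 tissues of bold and shy European sea bass (Dicentrarchus labrax): whole brain, pituitary and head kidney. Members were the 88 of 26719 gene rows whose symbol begins as that of a GABA-A, GABA-B, glycine, AMPA, kainate, NMDA, delta or metabotropic glutamate receptor subunit, or of glutamate decarboxylase (GAD). They comprised 82 receptor genes, 4 GAD genes and 2 GRID2IP genes, which the symbol pattern takes in. The 88 rows carried 54 symbols, and 71 rows shared a symbol, apart from a final A or B, with another row. Such rows may be duplicated genes or pieces of 1 gene model, which the files do not tell apart, so each row is named with its identifier.

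GABA and glycine open chloride channels and, in the mature brain, mostly quiet the receiving neuron, whereas glutamate opens cation channels and excites it. GABA-A, GABA-A rho and glycine receptors and the AMPA, kainate and NMDA receptors are channels built from several subunits, while GABA-B and the metabotropic glutamate receptors act through G proteins. In the fish pituitary, nerve fibres from the hypothalamus reach the hormone cells directly, and GABA and glutamate are known there as regulators of hormone release. The head kidney is the fish's main blood-forming organ and also holds the steroid-producing interrenal cells.

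Poly(A) RNA was sequenced in 30 libraries, 5 bold and 5 shy in each tissue, from 10 fish aged 478 days post fertilization. Bold fish (2 females and 3 males) left a shelter quickly in repeated risk-taking tests, and shy fish (3 females and 2 males) stayed inside or left very late. The labels name no drug or genotype, each library is 1 tissue of 1 fish, and the labels do not tie the libraries of different tissues to each other. Values are CPM (counts scaled to library size with TMM factors), without length correction, so levels are compared between libraries and not between genes. P-values measure the spread between these fish, and tests across tissues treat the 30 libraries as independent although they come from 10 fish. In whole tissues, fewer cells of a type and less RNA per cell cannot be told apart.

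Total counts per library ranged from 7916478 to 20067656 in brain, 3808645 to 12550808 in pituitary and 4667992 to 26837997 in head kidney. All 27 tested neuron markers were higher in brain than in head kidney, and the summed neuron markers were 6687 to 9071 CPM in brain, 1042 to 1693 CPM in pituitary and 8.6 to 12.8 CPM in head kidney. All 18 tested markers of head kidney blood and steroid-producing cells were lower in brain than in head kidney. Of the 27 tested neuron markers, 21 were called higher and 3 lower in brain than in pituitary. Of 7 endocrine pituitary markers, 5 were called lower and 2 higher in brain than in pituitary. Brain shy 4 stood apart, with 0.0160% of its counts on ribosomal protein genes, against 1.64% to 2.81% in the other 9 brain libraries, and a median rank correlation with them of 0.854, against 0.958 to 0.987. Pituitary shy 1 and shy 2 had 3.01% and 1.87% ribosomal protein counts, against 3.97% to 5.49% in the other 8. Calls between tissues are also given without brain shy 4, and behavior fold changes also without these libraries. Other counts use all libraries unless said otherwise.

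Receptor and GAD genes were mainly brain transcripts. The 88 members, GRID2IP genes included, took a median of 0.534% of all counts in brain (0.262% to 0.605%). Their median was 0.0522% in pituitary (0.0441% to 0.0940%) and 0.00529% in head kidney (0.00347% to 0.00890%). In head kidney the GRID2IP genes had a median sum of 23.3 CPM, against 73.1 CPM for all members. The mean level was highest in brain for 82 members and in pituitary for 6. It reached 1 CPM for 78 of the 88 in brain, 44 in pituitary and 8 in head kidney, where 35 members had no count in any library. A count of 0 over all 10 head kidney libraries allows up to 0.0195 CPM (3 of 154234701 counts, counting error only). In edgeR's quasi-likelihood fit of all 30 libraries, 79 members had enough counts to be tested. Of these, 65 were at least 2-fold higher and 2 at least 2-fold lower in brain than in pituitary at a Benjamini-Hochberg adjusted p under 0.05, where 23.3% of all 20807 tested genes were higher and 18.7% lower. The median log2 fold change, brain minus pituitary, was 3.61 for the members and 0.07 for all tested genes.

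Against head kidney, all 79 tested members were higher in brain and none was lower (37.6% and 26% of all tested genes). For pituitary minus head kidney, 59 were higher and 3 lower (34.1% and 22.6% of all tested genes). The low-count filter keeps a gene with counts in 1 tissue alone, so a member that passed through brain had to differ, and these counts describe the 79 and not all 88. The 9 that were not tested were a GABRA6, 3 rho, a GAD1, a GLRA2, a GRID1 and a pair of GRIN3A rows, with brain means of 0.00959 to 0.516 CPM. Without brain shy 4 the calls were 67 higher and 2 lower for brain minus pituitary and again 79 and 0 for brain minus head kidney.

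**Figure D1:**
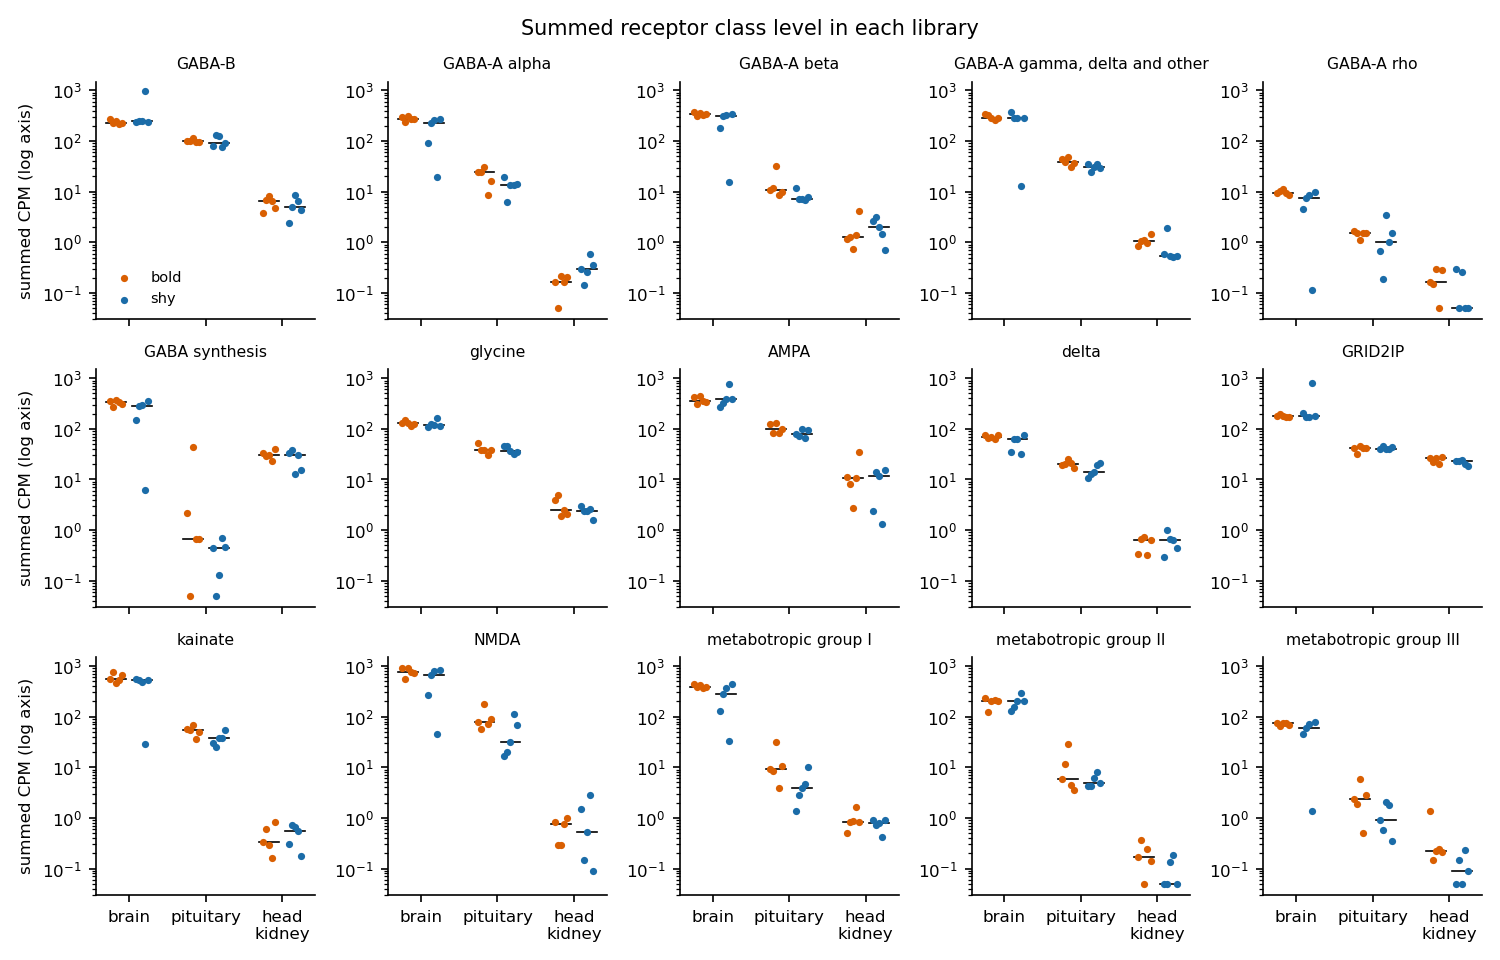
Summed CPM of each receptor class (log axis) in every library, by tissue, with bold libraries in orange left of shy libraries in blue and a bar at each group's median; sums under 0.05 CPM are drawn at 0.05. The brain median lay above the pituitary median in all 15 classes, GABA synthesis was higher in head kidney than in pituitary except in pituitary bold 3 (43.5 CPM), and brain shy 4 left its group downwards in some classes and upwards in others.

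GABA-A receptor subunits were mostly higher in brain than in pituitary. Of the 9 alpha, 6 beta and 7 gamma, delta and other subunits, 8, 6 and 4 were called higher in brain than in pituitary, and none lower. The alpha subunits, which with gamma subunits form the benzodiazepine site in mammals, and the beta subunits, which help to form the GABA site, had log2 fold changes of 1.28 to 7.47 and 1.43 to 6.97 among those tested. GABRB2 DLAgn_00110210 ran from 5.42 to 216 CPM in brain (median 192) and from 2.26 to 22.4 CPM in pituitary (median 5.8), with a median of 1.38 CPM in head kidney. GABRD, the delta subunit of extrasynaptic receptors, had medians of 204.5 CPM in brain, 10.3 CPM in pituitary and 0.753 CPM in head kidney. Of the brain libraries, shy 4 alone was within the pituitary range for both: its values were 5.42 and 6.69 CPM, while the other 9 brain libraries lay at 140 CPM or more for GABRB2 and 175 for GABRD. The log2 fold changes, brain minus pituitary, were 4.76 for GABRB2 (SE 0.430, edgeR adjusted p 1.70e-10) and 4.33 for GABRD (SE 0.375, edgeR adjusted p 7.59e-11).

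The gamma subunits did not follow 1 pattern. GABRG3 DLAgn_00153230 had medians of 1.27 CPM in brain and 2.11 CPM in pituitary, while GABRG3 DLAgn_00139050 had 3.06 CPM in brain and a median of 0 in pituitary. GABRP, the pi subunit, showed the same split: DLAgn_00111440 had 2.38 CPM in brain and 3.89 CPM in pituitary, and DLAgn_00010340 had 16.0 and 0.110 CPM. Neither copy that was nominally higher in pituitary passed the test (log2 fold change, brain minus pituitary, -0.76 with SE 0.399 for GABRG3 and -0.81 with SE 0.424 for GABRP, edgeR adjusted p 0.101 and 0.1), whereas both partners were called higher in brain. The rho subunits, known from the vertebrate retina, had few counts: GABRR1 DLAgn_00022950 had a median of 4.32 CPM in brain and 0.326 CPM in pituitary.

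GABA-B receptors need both subunits at the cell surface, GABBR1 to bind GABA and GABBR2 to signal. GABBR1 DLAgn_00056870 was measured in all 3 tissues, with medians of 202 CPM in brain (181 to 970), 92.3 CPM in pituitary (71.3 to 130.0) and 5.70 CPM in head kidney (2.40 to 8.74). GABBR2 had medians of 34.2 CPM in brain and 1.91 CPM in pituitary and no count in head kidney. The log2 fold change, brain minus pituitary, was 1.45 for GABBR1 DLAgn_00056870 (SE 0.244, edgeR adjusted p 8.5e-06) and 3.9 for GABBR2 (SE 0.417, edgeR adjusted p 8.15e-08). Whether the GABBR1 and GABBR2 differences themselves differ was not tested.

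GAD, the enzyme that makes GABA from glutamate, gave the largest departure from the order brain, pituitary, head kidney. GAD1B DLAgn_00050760 had 29.6, 26.3, 29.5, 21.3 and 36.8 CPM in bold head kidneys and 20.1, 36.1, 11.8, 28.6 and 14.3 CPM in shy head kidneys. In pituitary the same gene had 0.346, 0, 9.30, 0 and 0 CPM in bold fish and 0 CPM in all 5 shy fish. Every head kidney library was thus above every pituitary library, and the 9 brain libraries other than shy 4 were higher still, at 49.8 to 87.7 CPM. The log2 fold change was -7.54 for pituitary minus head kidney (SE 0.972, edgeR adjusted p 1.81e-07) and 1.46 for brain minus head kidney (SE 0.529, edgeR adjusted p 0.0145). The first was called under all 37 alternatives, with log2 fold changes of -9.43 to -6.94.

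The other copy, GAD1B DLAgn_00002100, had medians of 159 CPM in brain, 0.340 CPM in pituitary and 1.88 CPM in head kidney, with 12.9 CPM in head kidney shy 1 and 0.876 to 3.68 CPM in the other 9. Its pituitary minus head kidney difference (log2 -1.77, SE 0.774, edgeR adjusted p 0.0406) was called under 23 of 37 alternatives and lost under 14, with adjusted p up to 0.129 without head kidney shy 1. GAD2, the form bound to synaptic vesicles in mammals, had a median of 76.1 CPM in brain and no count in head kidney. The head kidney therefore had reads on both GAD1B rows and none on GAD2, where the summed neuron markers were at most 12.8 CPM. The GABA-A alpha subunits summed to 0 to 0.601 CPM there. The row GAD1 DLAgn_00000100 was too low to test, with at most 0.13 CPM in brain and 1.97 CPM in pituitary bold 3.

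Glycine receptors are built of GLRA subunits and the anchoring subunit GLRB. GLRB DLAgn_00175390 had medians of 62.9 CPM in brain (48.6 to 156), 14.3 CPM in pituitary (8.51 to 25.4) and 2.28 CPM in head kidney (1.44 to 4.83), and the 3 ranges did not overlap. GLRB DLAgn_00114120 had 45.2 CPM in brain and 21.0 CPM in pituitary and a head kidney median of 0; its log2 fold change, brain minus pituitary, of 0.95 stayed under the 2-fold limit (SE 0.266, edgeR adjusted p 0.00282). GLRA3 had similar medians of 1.73 CPM in brain and 1.59 CPM in pituitary (log2 -0.05, SE 0.470, edgeR adjusted p 0.943). Of 6 tested glycine receptor genes, 4 were called higher in brain than in pituitary.

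Among the ionotropic glutamate receptors, AMPA receptors carry most fast excitation. GRIA3A DLAgn_00041080 had a median of 194 CPM in brain (156 to 738), against 5.68 CPM in pituitary (3.58 to 37.1) and 10.5 CPM in head kidney (1.06 to 32.5). Its pituitary and head kidney ranges overlapped, and the difference between them did not pass (log2 -0.31, SE 0.466, edgeR adjusted p 0.558). GRIA3B DLAgn_00110720 differed: its medians were 63.7 CPM in brain and 42.0 CPM in pituitary, the ranges overlapped, and the log2 fold change was 0.27 (SE 0.270, edgeR adjusted p 0.385). Kainate receptor genes split in a like way. GRIK5 DLAgn_00094520 had 22.7 to 628 CPM in brain, 22.7 being shy 4 and the next lowest 293, and a median of 0 CPM in pituitary, with 3.81 CPM in bold 1 and at most 0.671 CPM in the other 9, a log2 fold change of 10.37 (SE 0.709, edgeR adjusted p 5.76e-13). GRIK2 DLAgn_00065430 had 43.2 CPM in brain and 0.0370 CPM in pituitary, while GRIK2 DLAgn_00071340 had 29.7 and 22.1 CPM (log2 0.29, SE 0.347, edgeR adjusted p 0.482).

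Both members called higher in pituitary than in brain were glutamate receptor subunits with a copy that was nominally higher in brain. GRIN2C DLAgn_00104160, an NMDA receptor subunit that in mammals is best known from the cerebellum, had 55.1, 41.1, 53.5, 55.1 and 67.9 CPM in bold pituitaries and 6.71, 13.1, 12.8, 94.9 and 55.0 CPM in shy pituitaries. In brain it had 10.8, 12.6, 8.92, 9.45 and 8.86 CPM in bold fish and 6.82, 7.77, 10.4, 0.346 and 11.3 CPM in shy fish. The bold pituitaries were all above every brain library, whereas pituitary shy 1 was within the brain range. Means were 8.73 ± 3.40 CPM in brain and 45.5 ± 27.8 CPM in pituitary (SD, n = 10 each), a log2 fold change, brain minus pituitary, of -2.30 (SE 0.403, edgeR adjusted p 1.52e-05) that was called under all alternatives (-2.65 to -1.99).

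GRIN2C DLAgn_00194310 ran the other way, with medians of 56.7 CPM in brain (0.692 to 72.5) and 2.14 CPM in pituitary (1.03 to 6.13), a log2 fold change of 4.43 (SE 0.507, edgeR adjusted p 2.12e-07). The 2 rows of 1 symbol thus had opposite orders of brain and pituitary. GRIK1 DLAgn_00043210, a kainate receptor subunit, had medians of 1.37 CPM in brain (0 to 2.26) and 3.17 CPM in pituitary (1.12 to 4.72). Its log2 fold change, brain minus pituitary, was -1.24 (SE 0.400, edgeR adjusted p 0.00864), and without brain bold 5 it was -0.997, just under the 2-fold limit. GRIK1 DLAgn_00035250 had medians of 7.32 CPM in brain and 4.43 CPM in pituitary (log2 0.55, SE 0.289, edgeR adjusted p 0.103).

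**Figure D2:**
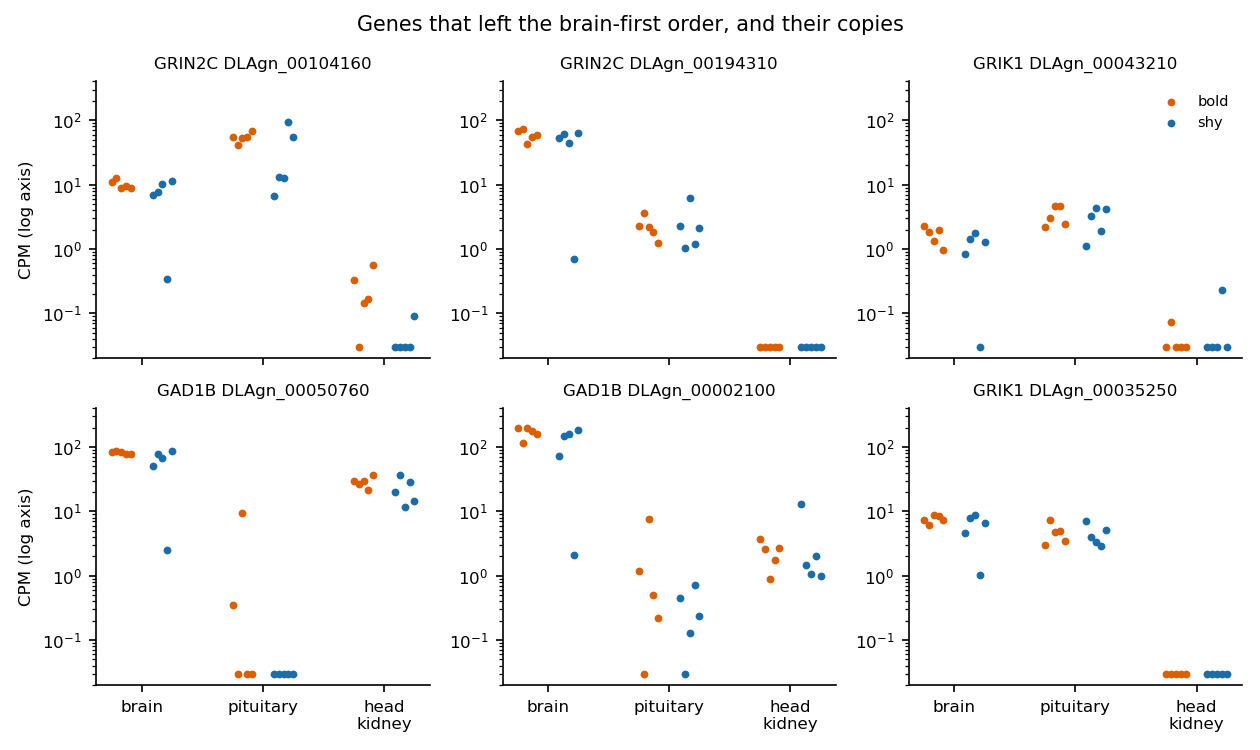
CPM (log axis) in every library of 6 gene rows, by tissue, bold in orange left of shy in blue; values under 0.03 CPM are drawn at 0.03. The 2 GRIN2C rows have opposite orders of brain and pituitary, and GAD1B DLAgn_00050760 had 11.8 to 36.8 CPM in head kidney and 0 CPM in 8 of 10 pituitary libraries.

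**Figure D3:**
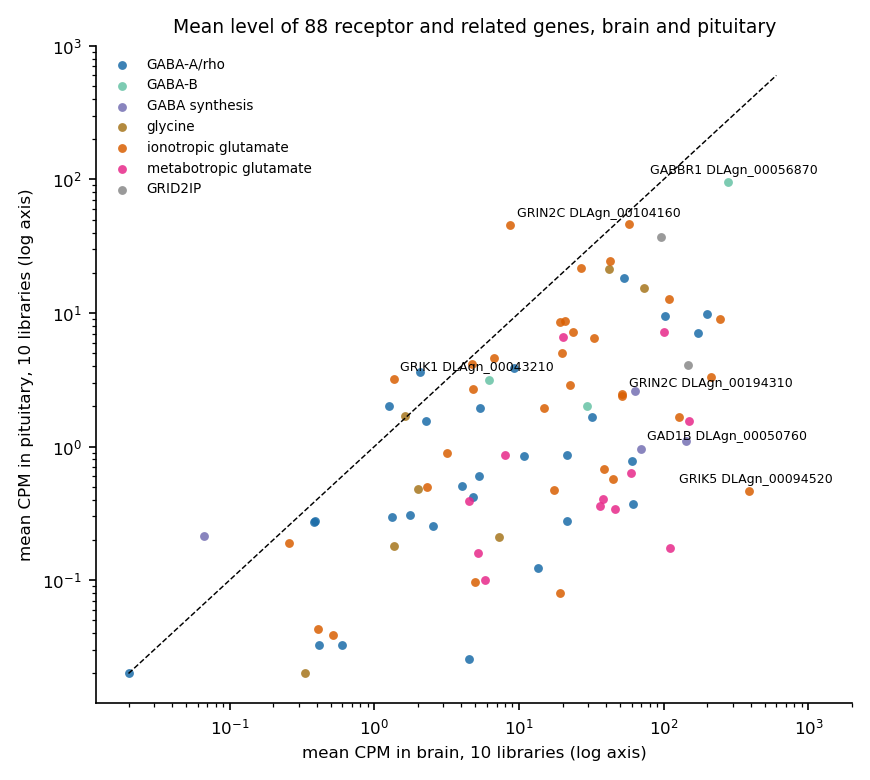
Mean CPM in pituitary against mean CPM in brain (10 libraries each, both axes log) for the 88 genes, coloured by receptor family, with the line of equal levels dashed; means under 0.02 CPM are drawn at 0.02. The 6 points above the line include GRIN2C DLAgn_00104160 and GRIK1 DLAgn_00043210, which passed the test.

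The remaining NMDA and metabotropic genes were brain-weighted. GRIN1A DLAgn_00086980, the subunit every NMDA receptor needs, had a median of 226 CPM in brain (20.1 to 307) and 0.131 CPM in pituitary (0 to 29.6). GRM3, which lowers cyclic AMP and in mammals is prominent in astrocytes, had 87.6 CPM in brain (47.1 to 296) and 4.58 CPM in pituitary (3.47 to 22.4). GRM7 DLAgn_00129490, a presynaptic receptor, had 42.1 CPM in brain, 0.299 CPM in pituitary and no count in head kidney. All 12 metabotropic genes were called higher in brain than in pituitary. The 2 GAD1B rows, both lower in pituitary than in head kidney, were named after their values were seen. GRIA3A had a head kidney mean of 10.6 ± 9.02 CPM (SD, n = 10), and GRID2IP and GRID2IPB had means of 19.6 and 3.83 CPM there.

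The brain library shy 4 was not uniformly low in these genes. Of the 80 members tested in brain, 60 were under 10% of the median of the other 9 libraries and 67 were below all of them, whereas 7 were above all of them, 6 of these at more than 2 times the median. Among all 19243 brain-tested genes with a median above 0 the shares were 23.5% under 10% and 25.9% above 2 times, with 44.6% below and 38.4% above all other libraries. The members' median was 3.62% of the other libraries' median, against 84.7% for all tested genes. The 7 high members were GRID2IPB (520% of the median), GABBR1 DLAgn_00056870 (486%), GRIA3A (403%), GRID2IP (374%), GRM3 (340%), GLRB DLAgn_00175390 (249%) and GRID1 DLAgn_00015250 (130%). They were named after their values were seen.

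Rows of 1 symbol parted in that library. GABBR1 DLAgn_00056870 had 970 CPM in shy 4, against 181 to 231 CPM in the other 9, while GABBR1 DLAgn_00266560 had 0.346 CPM, against 1.97 to 9.41 CPM. GLRB DLAgn_00175390 had 156 CPM, against 48.6 to 87.8 CPM, while GLRB DLAgn_00114120 had 4.50 CPM, against 43.0 to 50.9 CPM. GRID1 DLAgn_00106000 had 0.231 CPM, against 1.90 to 7.89 CPM, while GRID1 DLAgn_00015250 was at 30.9 CPM, above the other 9. The same held among neuron markers, of which 12 of 27 tested were under 10% and 3 above 2 times: SYT1 DLAgn_00209370 had 3512 CPM, against 592 to 755 CPM, while SYPB DLAgn_00242090 had 2.77 CPM, against 160 to 365 CPM. Summed neuron markers were 9071 CPM in shy 4, against 6687 to 8285 CPM, and summed glia markers 1476 CPM, against 2470 to 5170 CPM. The part of the low ribosomal protein share in these values was not tested. Brain shy 1 was also low, at a median of 34.9% of the 8 libraries other than shy 4 for the members and 104% for all tested genes, with 63 of 80 members and 27.9% of all tested genes below those 8.

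**Figure D4:**
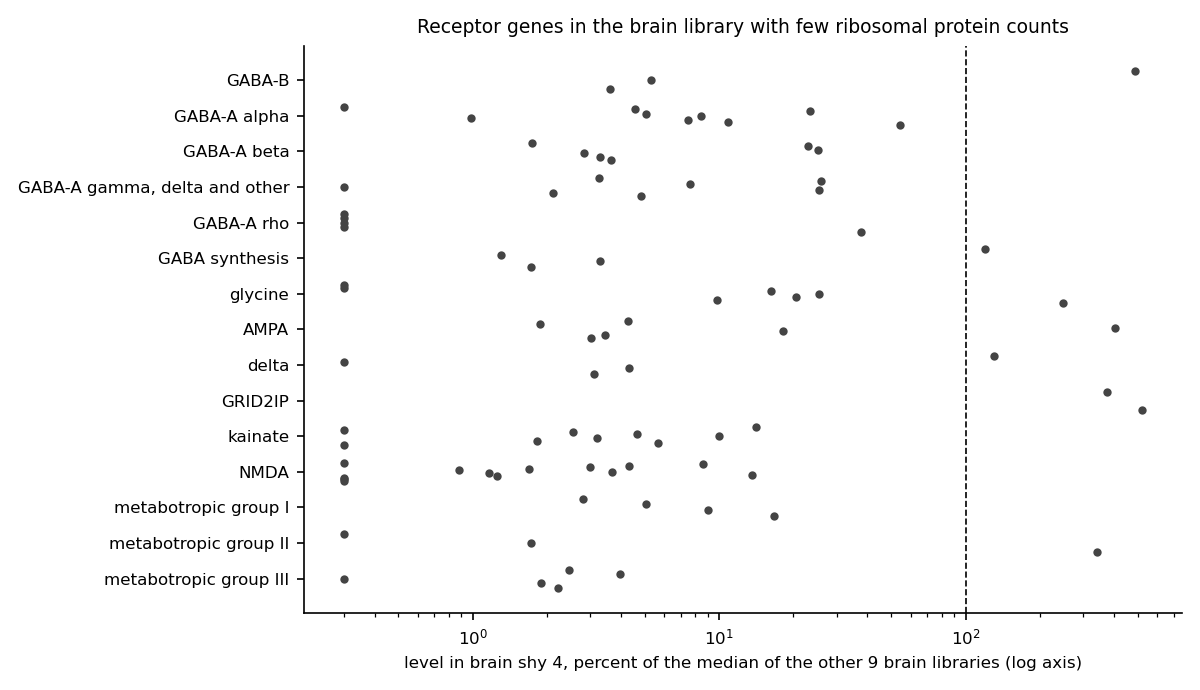
Level of each member in brain shy 4 as a percentage of its median over the other 9 brain libraries (log axis), 1 point per gene, by class, with 100% dashed and values under 0.3% drawn at 0.3%. Most points lie under 10%, and members of the GABA-B, glycine, AMPA, metabotropic group II and GRID2IP classes lie between 249% and 520%.

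In pituitary, bold 3 stood apart. It was above the other 9 libraries for 47 of the 88 members, and for 21 of them by more than 3 times the highest of the 9. Of the 41 members tested in pituitary it was above the rest for 18 (43.9%), against 9.57% of all tested genes. GAD2 had 24.7 CPM in bold 3, against 0 to 0.692 CPM in the other 9. GRIN1A DLAgn_00086980 had 29.6 CPM, against 0 to 1.52 CPM. GRIN2D DLAgn_00059440, an NMDA subunit of early and diencephalic neurons in mammals, had 53.2 CPM, against 3.13 to 12.2 CPM. These are genes with brain medians of 76.1 to 226 CPM. GRIN2C DLAgn_00104160 and GRID1 DLAgn_00106000, in contrast, were inside the range of the other pituitaries in bold 3 (53.5 and 5.69 CPM).

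Neuron markers were raised in part: 12 of the 23 tested in pituitary were highest in bold 3. The summed neuron markers were 1693 CPM there, against 1042 to 1369 CPM. GAP43 DLAgn_00029810 had 93.3 CPM, against 23.1 to 41.7 CPM, and NEFL DLAgn_00026550 had 13.1 CPM, against 0.168 to 3.53 CPM. The remaining NEFL rows were inside the range of the other pituitaries. DLAgn_00086180 had 0.656 CPM, against 0 to 5.26 CPM, and DLAgn_00114840 had 15.1 CPM, against 4.35 to 17.4 CPM. Both NEFM rows were inside it too, at 2.63 CPM (2.29 to 8.28) and 1.86 CPM (0.202 to 7.33). Of the 7 glia markers tested, 4 were above 2 times the others' median and 1 above all of them, and the summed glia markers were 105.9 CPM in bold 3, against 57.0 to 122.9 CPM. FABP7A DLAgn_00023880 had 21.3 CPM, against 0.910 to 7.05 CPM, while MBP DLAgn_00064210 had 51.1 CPM, against 37.9 to 98.6 CPM. Both SOX10 rows and OLIG2 DLAgn_00053880, under the count filter in pituitary, were also highest in bold 3, at 0.656, 1.31 and 1.31 CPM, against at most 0.254, 1.13 and 1.02 CPM. The rows S100B DLAgn_00091760, which had no count in any pituitary, and PLP1A DLAgn_00110680 were at 0 in bold 3. The summed endocrine markers were 6559 CPM in bold 3, against 2986 to 7503 CPM. The part of other tissue in the receptor values was not tested. Without bold 3 the calls were 64 higher and 2 lower for brain minus pituitary and 55 higher and 3 lower for pituitary minus head kidney.

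Bold and shy fish were compared within each tissue with sex as a covariate. No member was called in any tissue by edgeR at an adjusted p under 0.05, where 0.00519% of all genes were called in brain (1 gene), 0% in pituitary and 0.0061% in head kidney (1 gene). At an unadjusted p under 0.05 there were 1 of 80 tested members in brain, 5 of 41 in pituitary and 0 of 10 in head kidney, beside 1.46%, 17.6% and 11.1% of all tested genes. Without brain shy 4 there were 2 of 81 in brain, beside 6.45%, and without brain shy 1 and shy 4 there were 3 of 82, beside 3.27%. Without pituitary shy 1 and shy 2 there were 2 of 47 in pituitary, beside 4.1%. DESeq2 called 1 of the 41 tested members in pituitary, GRID1 DLAgn_00106000, among 691 genes (3.87% of all genes tested there). Bold and shy values did not overlap for 0 members in brain, 1 in pituitary and 0 in head kidney, where 1.02%, 2.11% and 2.72% of all tested genes did not.

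In brain the members leaned to bold, and the lean was smaller without shy 4 and smaller again without shy 1 and shy 4. Both libraries are shy and low in most members, so leaving them out lowers bold minus shy for those members by construction. The smaller medians therefore do not test the lean. Of 80 tested members 72 had a positive log2 fold change, bold minus shy, with a median of 0.66, while 51.0% of all genes were positive with a median of 0.01. Without shy 4, 71 of 81 were positive with a median of 0.41. Without shy 1 and shy 4, 59 of 82 were positive with a median of 0.11, and no member was called in either fit (smallest adjusted p 0.639 and 1). By class, all 8 alpha, 6 beta and 7 gamma, delta and other subunits tested had positive values with all 10 libraries. So did all 3 GABA synthesis, 9 kainate, 12 NMDA, 4 metabotropic group I and 5 metabotropic group III genes tested. Both GRID2IP genes had negative values, and the remaining classes had both signs.

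GABRG3 DLAgn_00153230 had the smallest p in brain. It had 2.79, 1.04, 2.23, 1.42 and 1.47 CPM in bold brains and 0.152, 0.671, 1.36, 0.346 and 1.18 CPM in shy brains, so the groups overlapped, with shy 1 and shy 4 lowest. The log2 fold change was 1.47 (SE 0.548, unadjusted p 0.0245, edgeR adjusted p 0.89). GABRG1 followed with 0.73 (SE 0.409) and GABRA3 DLAgn_00040270 with 1.12 (SE 0.697), both at an edgeR adjusted p of 0.89. GABRA3 had 7.58, 5.32, 7.03, 6.96 and 8.00 CPM in bold brains and 0.909, 3.55, 6.88, 0.346 and 6.28 CPM in shy brains. On the negative side, GABBR1 DLAgn_00056870 had 219, 191, 200, 181 and 183 CPM in bold brains and 231, 213, 204, 970 and 189 CPM in shy brains (log2 -0.65, SE 0.454, edgeR adjusted p 0.89). GRID2IPB (-0.67, SE 0.520) and GRIA3A (-0.50, SE 0.392) had the same single high library, shy 4, with 524 and 738 CPM, against at most 143 and 227 CPM elsewhere in brain. Without shy 4 the log2 fold changes were 1.25 for GABRG3, 0.55 for GABRG1, 0.85 for GABRA3, -0.12 for GABBR1, -0.05 for GRID2IPB and -0.09 for GRIA3A. Without shy 1 and shy 4 they were 0.85, 0.29, 0.40, -0.08, 0.06 and -0.02 in the same order, and none was called.

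In pituitary 31 of 41 tested members had a positive log2 fold change, bold minus shy, with a median of 0.38 (52.2% and 0.02 for all genes). Without pituitary shy 1 and shy 2, 31 of 47 were positive with a median of 0.15. These are the only male shy pituitaries, so the shy group left in that fit is all female. Sex is then estimated within bold fish alone, and bold minus shy rests on the females. The median was 0.24 without bold 3 and 0.65 without bold 4, over the members tested both there and with all libraries. GRID1 DLAgn_00106000, a delta receptor subunit that in mammals binds synaptic partners rather than passing current, had 5.81, 6.98, 5.69, 6.24 and 5.69 CPM in bold pituitaries and 0.447, 0, 4.6, 2.93 and 2.91 CPM in shy pituitaries. All bold values were above all shy values, and shy 1 and shy 2 were lowest. The log2 fold change was 2.18 (SE 0.743, unadjusted p 0.013, edgeR adjusted p 0.236). DESeq2 gave 2.38 (SE 0.623, DESeq2 adjusted p 0.0156), and adjusted p ran from 0.0156 to 0.989 over the alternatives. Without shy 1 and shy 2 the value was 0.79, and its other row, GRID1 DLAgn_00015250, had -0.09 with all libraries (SE 0.231).

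GABRG1 had 1.80, 2.29, 4.16, 1.85 and 1.26 CPM in bold pituitaries and 0.447, 0.470, 1.40, 0.809 and 1.05 CPM in shy pituitaries, overlapping only between bold 5 and shy 3 (log2 1.48, SE 0.523, edgeR adjusted p 0.242). GABRD had 13.4, 8.13, 10.8, 11.1 and 13.8 CPM in bold pituitaries and 3.8, 6.01, 12.1, 9.50 and 9.79 CPM in shy pituitaries (log2 0.65, SE 0.257, edgeR adjusted p 0.259). The remaining members under an unadjusted p of 0.05 were GRIA4A DLAgn_00046400 (log2 1.54, SE 0.618) and GRIN2B DLAgn_00186040 (log2 1.18, SE 0.504), with edgeR adjusted p of 0.26 and 0.27. GRIN2C DLAgn_00104160, whose pituitary values are given above, had a log2 fold change of 1.14 (SE 0.676, edgeR adjusted p 0.377) and 3 of 5 shy libraries below every bold one. The lowest-p negative values were those of GRID2IPB (-0.40, SE 0.340), GLRA3 (-0.59, SE 0.651) and GRID1 DLAgn_00015250. Without shy 1 and shy 2 the log2 fold changes were 0.74 for GABRG1, 0.23 for GABRD, 0.54 for GRIA4A, 1.00 for GRIN2B, 0.01 for GRIN2C, 0.23 for GRID2IPB, -0.06 for GLRA3 and -0.20 for GRID1 DLAgn_00015250, and none was called. Summed endocrine markers were 5137 to 6834 CPM in bold and 2986 to 7503 CPM in shy pituitaries, with shy 1 and shy 2 lowest at 4084 and 2986 CPM, and their part in these values was not tested.

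**Figure D5:**
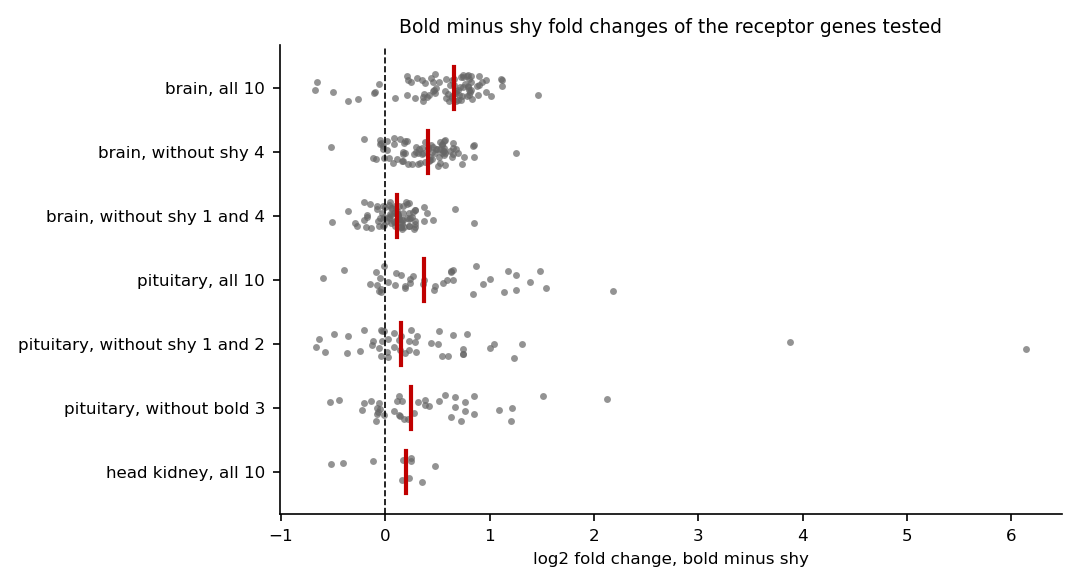
Log2 fold change, bold minus shy, of each member tested (grey points, 1 per gene) in 7 fits named by tissue and libraries, with the median as a red bar and 0 dashed. The brain median is 0.66 with all libraries, 0.41 without shy 4 and 0.11 without shy 1 and shy 4. GRIN1A DLAgn_00086980, 1 of the 2 points beyond 3, was tested in pituitary only in the fit without pituitary shy 1 and shy 2. It is high in pituitary bold 3.

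In head kidney 7 of 10 tested members had positive values, with a median of 0.20 (48.1% and -0.01 for all genes). GAD1B DLAgn_00050760 had a log2 fold change of 0.25 (SE 0.247, edgeR adjusted p 0.755), GRID2IP 0.16 (SE 0.145) and GLRB DLAgn_00175390 0.35 (SE 0.365). GABRB2 DLAgn_00110210 (-0.41, SE 0.487), GAD1B DLAgn_00002100 (-0.52, SE 0.717) and GRID2IPB (-0.11, SE 0.285) were nominally lower. GRIA3A had 10.5, 8.03, 2.26, 10.5 and 32.5 CPM in bold head kidneys and 2.40, 13.4, 11.3, 1.06 and 13.6 CPM in shy head kidneys, so its spread within each group exceeded the difference between them.

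Whether the bold minus shy change differed between tissues was tested in the fit of 30 libraries. No member was called for brain minus pituitary, brain minus head kidney or pituitary minus head kidney (0%, 0% and 0% of all genes by edgeR). At an unadjusted edgeR p under 0.05 there were 8, 3 and 4 of 79 tested members, beside 5.18%, 7.06% and 4.98% of all tested genes. The 8 included GABRA2, GABRG3 DLAgn_00139050, GAD1B DLAgn_00050760, GAD2, GLRA2 DLAgn_00051640 and GRIN1A, each of them a gene for which pituitary bold 3 exceeded 3 times every other pituitary. DESeq2 called 34 genes (0.163%) for pituitary minus head kidney. Of these, 1 was a member, GRIN2D DLAgn_00059440 (log2 6.35, SE 1.46, DESeq2 adjusted p 0.0211). It had 45 counts in head kidney shy 4 and 0 in the other 9 head kidneys. DESeq2 called 0 members for brain minus pituitary and brain minus head kidney (0.0384% and 0.0529% of all genes).

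Male and female fish were compared within each tissue with behavior as a covariate. No member was called in brain, pituitary or head kidney (0%, 0% and 0% of all genes by edgeR). DESeq2 also called 0 members (0.00519%, 0% and 0.0427% of all genes). At an unadjusted edgeR p under 0.05 there were 0 of 80, 3 of 41 and 0 of 10 tested members, beside 0.488%, 13.1% and 3.67% of all tested genes. The 3 pituitary members were GRIA4A DLAgn_00046400 (log2 -2.05, male minus female, SE 0.618), GRIA3A (1.24, SE 0.529), which is highest in the male bold 3, and GABRD (-0.58, SE 0.257), all at an edgeR adjusted p of 0.374 or more. Pituitary shy 1 and shy 2, both male and low in ribosomal protein counts, were the lowest pituitaries for GRIA4A DLAgn_00046400 (1.34 and 0.47 CPM) and GABRD (3.803 and 6.015 CPM).

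Genes that work with the receptors were counted from lists of transporters, vesicle loaders, anchors and auxiliary subunits. For behavior, 0 of the partners of GABA and glycine receptors and 0 of those of glutamate receptors were called by edgeR in any tissue. The shares of all tested genes called were 0.00519% in brain, 0% in pituitary and 0.0061% in head kidney. Positive values, bold minus shy, were found for 28 of 42 and 57 of 71 tested partners in brain (medians 0.36 and 0.47), 22 of 33 and 37 of 55 in pituitary (0.13 and 0.37), and 12 of 20 and 10 of 22 in head kidney (0.12 and -0.02). Of all tested genes, 51% were positive in brain, 52.2% in pituitary and 48.1% in head kidney. Across tissues, 25 of 42 GABA and glycine partners were higher and 1 lower in brain than in pituitary, and 48 of 73 glutamate partners were higher and 7 lower. Of all tested genes, 23.3% were higher and 18.7% lower. Against head kidney, 30 and 69 were higher in brain and 4 and 0 lower (37.6% and 26% of all tested genes). In pituitary bold 3, 19 of 55 glutamate partners and 6 of 33 GABA and glycine partners were above the other 9 libraries, beside 9.57% of all tested genes.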

How the data were processed

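Raw read counts per gene for 30 libraries were analysed as deposited in 1 table by the authors. Per the labels, poly(A) libraries were made with a stranded kit and sequenced single-end at 50 nt on 3 lanes. Per the submitters' processing notes, the tools named are featureCounts 1.6.2, TopHat2 2.1.1 with Bowtie2 2.2.9, SAMtools 1.5, bcl2fastq 2.20 and FastQC. The sources used here give neither genome build, annotation nor the strand setting of the counting, and reads of near-identical copies may be split or lost. Columns were matched to samples by name.

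Each tissue was fitted with behavior and sex, and all 30 libraries with 6 group means and sex, in edgeR 4.0.16 (R 4.3.3; TMM, filterByExpr with a minimum count of 10, robust quasi-likelihood test, two-sided). Adjusted p-values are Benjamini-Hochberg over all genes tested, called under 0.05, with at least a 2-fold change between tissues. DESeq2 1.42.0, other size factors, other filters, no covariate and leaving out libraries were the alternatives. Group differences in class sums were described without a test. The fits were tested on simulated data. The 88 members, their classes and the lists of partner and marker genes were chosen with earlier results of these data known. Genes named with values were the highest in brain of each class, those higher outside the brain or at 1 CPM or more in head kidney, copies that differ in tissue, the 3 smallest p-values in each direction for behavior, and those that moved most without brain shy 4. Sequences were not used here, and some genes that this rule names are not reported here.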

Additional observations from a re-analysis of the deposited data

Results flagged for a closer look

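Class sums were checked in 96 groups of 5 libraries for 1 library far from the rest. The limit used flags about 1 in 20 groups of normally distributed values. The groups share libraries and some sums rest on few counts, so that rate need not hold here. In total 19 groups were flagged. Of these, 6 were brain shy 4. Its summed CPM was high for GABA-B receptors (971, against 236 to 247 in the other 4 shy brains), glycine receptors (162, against 108 to 123), AMPA receptors (754, against 268 to 387) and the GRID2IP genes (807, against 169 to 210). Single rows made up most of the receptor sums: GABBR1 DLAgn_00056870 had 970 CPM, GLRB DLAgn_00175390 156 CPM and GRIA3A 738 CPM. GABBR2 (1.27 CPM), GLRB DLAgn_00114120 (4.50 CPM) and the remaining AMPA rows (0.346 to 11.8 CPM) were below all other brain libraries. Brain shy 4 was low for the GABA-A gamma, delta and other subunits (12.7, against 279 to 373) and the kainate receptors (29.2, against 482 to 559).

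Another 6 were pituitary bold 3. It was high for GABA synthesis (43.5, against 0 to 2.21 CPM in the other 4 bold pituitaries), GABA-A beta (32.3, against 8.59 to 11.8), NMDA (176, against 56.5 to 88.1), metabotropic group I (31.6, against 3.88 to 10.6) and GABA-B receptors (113, against 94.5 to 99.8). It was low for the GABA-A rho subunits (1.09, against 1.52 to 1.66).

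In head kidney, bold 5 was high for AMPA receptors (34.3, against 2.7 to 11.2 CPM) and for GABA-A beta (4.15, against 0.73 to 1.4). GRIA3A alone had 32.5 CPM there, and GABRB2 DLAgn_00110210 alone had 4.15 CPM. Head kidney shy 2 was high for the GABA-A gamma, delta and other subunits (1.9, against 0.509 to 0.599), and bold 1 for metabotropic group III (1.34, against 0.149 to 0.247). The group III value is 8 counts of GRM4 DLAgn_00128090, which had 1 to 3 counts in the other bold head kidneys. The alpha subunits summed to 0 in head kidney bold 2, against 0.165 to 0.219, which rests on very few counts. GABRA6 DLAgn_00110220 had 0 counts in bold 2 and 1 to 3 in the other bold head kidneys. Pituitary shy 1 was high for GABA-A beta (11.9, against 6.77 to 7.69), and brain bold 2 was low for metabotropic group II (125, against 201 to 232).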

How the results depend on the processing

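Calls between tissues kept their direction, with 66 to 72 members called for brain minus pituitary (67 with the settings reported), 79 to 85 for brain minus head kidney (79) and 57 to 66 for pituitary minus head kidney (62). For behavior, edgeR called 0 members under all alternatives. DESeq2 called 1 in pituitary (3.87% of all genes) and 1 for the pituitary minus head kidney difference in change (0.163% of all genes). The pituitary median of bold minus shy was 0.14 without shy 1 and shy 2, over the members tested with all libraries. It was 0.24 to 0.65 when single libraries were left out. Without shy 1 and shy 2 the shy pituitaries are all female.

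Reversed signs were all of differences that had not passed a test, and the cause was not tested. For pituitary minus head kidney, GRID2IPB was -0.13 without pituitary shy 1 and shy 2 (0.08 with all). GRIK5 DLAgn_00094520 was -0.40 without both and -0.92 to 1.51 with 1 library left out (1.15), and GRIA3A was -0.80 to 0.074 (-0.31). For bold minus shy, GRID2IPB was 0.059 in brain without shy 1 and shy 4 and 0.23 in pituitary without shy 1 and shy 2, and -0.24 to 0.088 in head kidney with 1 library left out. GAD1B DLAgn_00002100 was -1.03 to 0.76 in head kidney, where 0.76 is without shy 1. No paired analysis was possible because replicate numbers were given in accession order and the labels do not tie libraries to fish. In head kidney 80 members averaged under 1 CPM, where 3 counts of the 154234701 in all its libraries are 0.0195 CPM.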
